A study of Anas platyrhynchos with 16 samples.

Results

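The genes described are the ligands and receptors of axon guidance that carry a gene symbol in the duck table: semaphorins 3 to 7, plexins A to D, neuropilins, Eph receptors, ephrins, Slits, Robos, netrins, DCC and the UNC5 receptors. They were taken by symbol alone, which gave 51 of the 24263 genes listed. By role these were 15 semaphorins, 6 plexins, 2 neuropilins, 11 Eph receptors, 3 ephrins, 3 Slits, 3 Robos, 3 netrins and 5 netrin receptors. A further 13 genes that the table describes, or a reference gene table names, as members of these families are listed only by a locus number and were not included; among them are EPHB1, EPHB3, PLXNA4, ROBO3 and SEMA4C. Reads of split or near-identical loci may be shared between such entries, so SEMA3A, SEMA3D, ROBO1 and NTN4, which have a second locus under a number, are uncertain to that degree. The gene listed as SEMA3G is described as semaphorin-3G in the table but carries the symbol SEMA3F in the reference table, and is called SEMA3G here.

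RNA was sequenced from hypothalamus and pituitary of Shanma ducks (Anas platyrhynchos) aged 113 days, and 16 libraries were made, 4 for every combination of tissue and housing. Caged ducks, 15 birds in 3 cages, had been moved on day 110, 3 days before sampling, and had 16 h of light a day. Floor-water ducks, also 15 birds, lived on a floor with access to water under natural light, so that housing and light cannot be told apart. Which cage or bird a library came from is not given in the sources used here, so the p-values reflect how far these libraries spread, a spread that may be technical.

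Axon guidance cues steer growing nerve fibres. Secreted or membrane-bound ligands bind receptors on the growth cone and pull on or push back its cytoskeleton. Semaphorins signal through plexins, the secreted class 3 members mostly with a neuropilin as the binding partner. Ephrins signal through the Eph tyrosine kinases at contacts between cells, Slits through Robo receptors, and netrins through DCC, mostly as attraction, and through UNC5 receptors, as repulsion. In adult animals the same families also act at synapses, in blood vessels and in epithelia, and in mammals semaphorins and neuropilins guide the neurons that carry gonadotropin-releasing hormone to the hypothalamus.

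Library totals lay between 38853215 and 67175356 counts. Growth hormone (GH1) stood at 60200 to 143000 FPKM in pituitary and 29.1 to 16900 FPKM in hypothalamus, and the neuronal gene SNAP25 at 477 to 853 FPKM in hypothalamus and 23.8 to 65.2 FPKM in pituitary, so the tissue labels matched their markers. FPKM is a level per transcript length and library size. Markers of other cell types were high in some libraries. Hormone-cell markers in caged hypothalamus library 4 summed to 19.0% of the pituitary mean, against 0.264% to 4.44% in the other hypothalamus libraries. Choroid plexus and ependymal markers summed to 20500 FPKM in caged hypothalamus library 2 and to 19.1 to 680 FPKM in the others. Oligodendrocyte markers in caged pituitary library 2 and floor-water pituitary libraries 2 and 4 summed to 3.98%, 1.76% and 4.11% of the hypothalamus mean, against 0.276% to 0.604% in the other pituitary libraries. The summed neuronal markers were also highest in these 3 pituitary libraries, whereas astrocyte and tanycyte markers were highest in floor-water library 2 (48.2%), caged library 2 (28.0%) and floor-water library 1 (25.9%), with 14.2% in floor-water library 4. Mural cell markers summed to 159 and 143 FPKM in floor-water pituitary libraries 1 and 2, against 10.5 to 32.0 FPKM in the other 6. Counts of members that passed are given with and without these libraries, and fold changes without them where a call was lost or a value moved by over 1.5 times. In these bulk tissues, fewer cells of a type and less RNA per cell cannot be told apart.

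Levels of the members were mostly higher in hypothalamus than in pituitary. A mean of at least 1 FPKM was reached by 48 members in caged hypothalamus, 49 in floor-water hypothalamus, 41 in caged pituitary and 43 in floor-water pituitary. A mean of at least 10 FPKM was reached by 18, 17, 5 and 6 members in the same order. The same counts over all genes are not given here. FPKM is scaled by library size alone, and ratios of pituitary to hypothalamus look lower on that scale than in the fold changes below. SLIT1, a secreted repellent, had the highest mean in hypothalamus, 50.5 ± 8.31 FPKM in caged ducks and 44.6 ± 4.904 FPKM in floor-water ducks (SD, n = 4). SEMA3G, a secreted class 3 semaphorin, came next there and led in pituitary, at 29.6 ± 10.3 and 30.6 ± 8.42 FPKM. The next in hypothalamus were EPHA5, SEMA7A, PLXNA1 and EPHA4, with means of 20.4 to 34.9 FPKM over both housings. In pituitary SLIT1, UNC5B and PLXND1 came after SEMA3G, with means of 14.7 to 22.2 FPKM. At the other end, 7 of the 816 values of members were listed at 0.0001 FPKM, the entry for no signal, all of them in pituitary and all in EPHA8, SEMA3E or EPHB6.

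**Figure D1:**
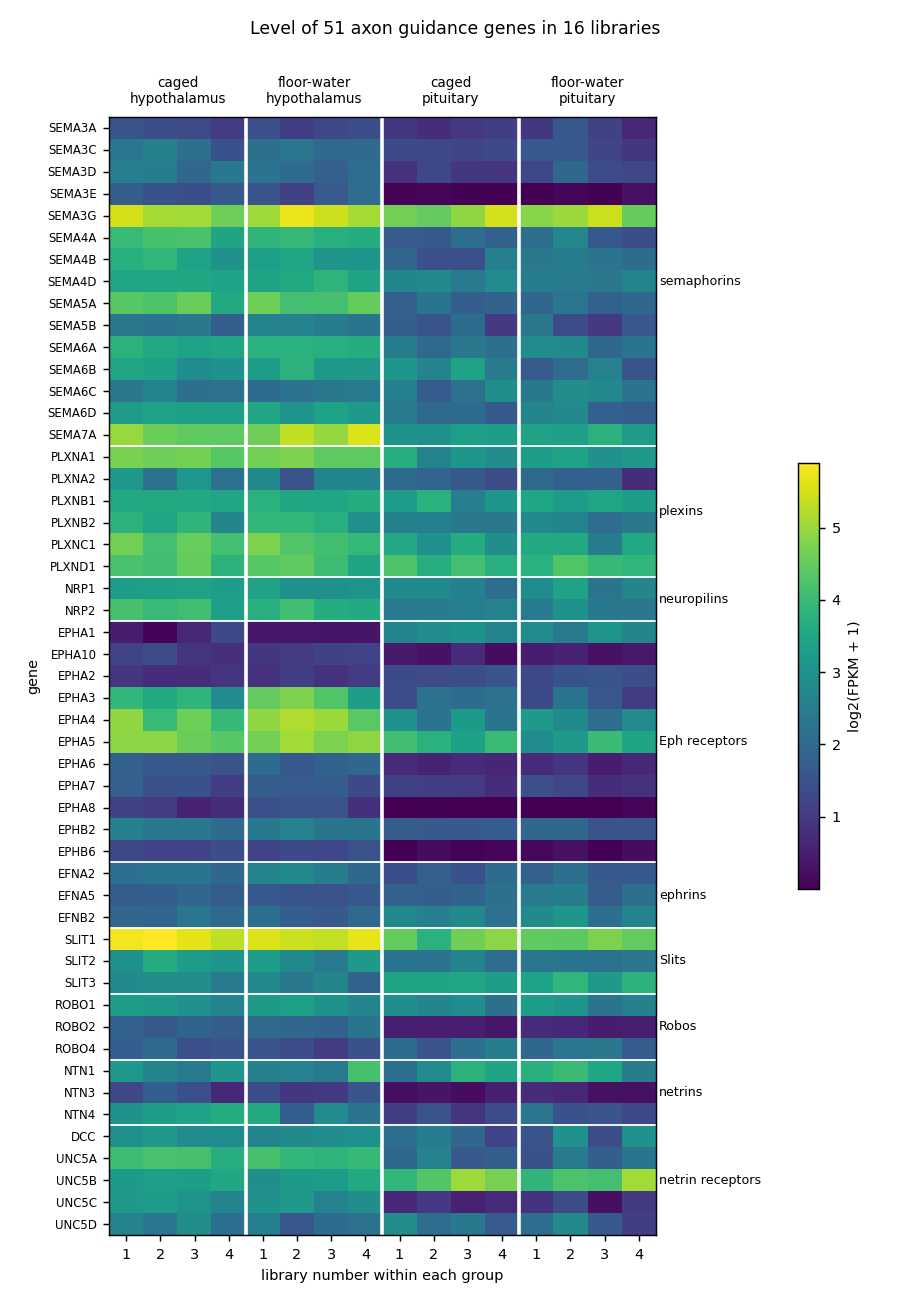
Level of each of the 51 members, as log2(FPKM + 1) by colour, in the 16 libraries (columns, numbered within each group; rows ordered by family). SLIT1 and SEMA3G are the brightest rows in hypothalamus, and EPHA8, SEMA3E and EPHB6 are darkest in pituitary.

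Between the tissues, more members were lower in pituitary than in hypothalamus. In floor-water ducks 39 of 51 passed an adjusted p of 0.05 (edgeR's quasi-likelihood test over 15878 genes), 31 lower and 8 higher in pituitary, beside 56.3% of all genes. That is 60.8% lower and 15.7% higher, beside 27.8% and 28.5% of all genes tested. In caged ducks 38 of 51 passed beside 54.1% of all genes, 31 lower and 7 higher, 60.8% and 13.7% beside a background of 26.8% and 27.3% over 15854 genes. The median log2 fold change of the members was -0.88 in floor-water and -0.84 in caged ducks, against 0.07 in each over all genes. All 51 passed the filter on low counts in these comparisons. SEMA3E and EPHA8 did so through hypothalamus alone in each housing, and EPHB6 in caged ducks, so their calls there followed from the filter and are given without a p-value. Without them 37 of 49 passed in floor-water (29 lower, 8 higher) and 35 of 48 in caged ducks (28 lower, 7 higher), with medians of -0.82 and -0.76.

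Of the 51, 26 were lower in pituitary in both housings and 7 were higher in both: EPHA1, EPHA2, EFNA5, EFNB2, SLIT3, ROBO4 and UNC5B. The 26 include SEMA3E, EPHA8 and EPHB6, whose calls followed from the filter, for EPHB6 in caged ducks only. EFNA2, EPHA5, EPHA7, SEMA5B and SEMA6B (lower) and SEMA6C (higher) passed in floor-water ducks alone, and DCC, NRP1, NTN4, PLXNA2 and SEMA3D (lower) in caged ducks alone. NTN1, PLXNB1, PLXND1, ROBO1, SEMA3A, SEMA3G and UNC5D passed in neither, and no member passed in opposite directions. A call in 1 housing does not show that the housings differ, and in the test of that difference over all 16 libraries no member passed (smallest adjusted p 0.463, SEMA3D). Scaling by library size alone moved the median of all genes to -0.15 in floor-water and -0.28 in caged ducks, and the higher share of all called genes in caged ducks from 50.4% to 32.8%. FPKM follows that scale, so ratios of FPKM between tissues look lower than the fold changes given. With that scaling 7 members were higher and 33 lower in floor-water ducks, and 5 higher and 34 lower in caged ducks. Over all genes it gave 3515 higher and 4949 lower of 15878 in floor-water ducks, and 2709 and 5551 of 15854 in caged ducks.

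Neuronal markers were lower in pituitary for 6 of 6 genes tested, oligodendrocyte markers for 5 of 5 and astrocyte and tanycyte markers for 5 of 6 in each housing, while 12 of 12 hormone-cell markers were higher. The summed neuronal markers were 2460 to 3780 FPKM in hypothalamus and 215 to 456 FPKM in pituitary. None of these genes was at 0 throughout a group. The part of this difference in cell make-up in the members' fold changes was not tested. Without the 3 pituitary libraries richest in oligodendrocyte markers, 33 members passed in floor-water ducks (7 higher, 26 lower) and 37 in caged ducks, where 1 of them lies (7 higher, 30 lower). Without caged hypothalamus libraries 2 and 4, 30 passed in caged ducks (5 higher, 25 lower). Without floor-water pituitary libraries 1 and 2, an alternative chosen after seeing the data, 35 passed in floor-water ducks (7 higher, 28 lower). Over all genes these fits called, in the same order, 8107 of 16755, 8328 of 16252, 6873 of 16796 and 8400 of 16686. With all libraries 8935 of 15878 genes were called in floor-water and 8571 of 15854 in caged ducks.

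**Figure D2:**
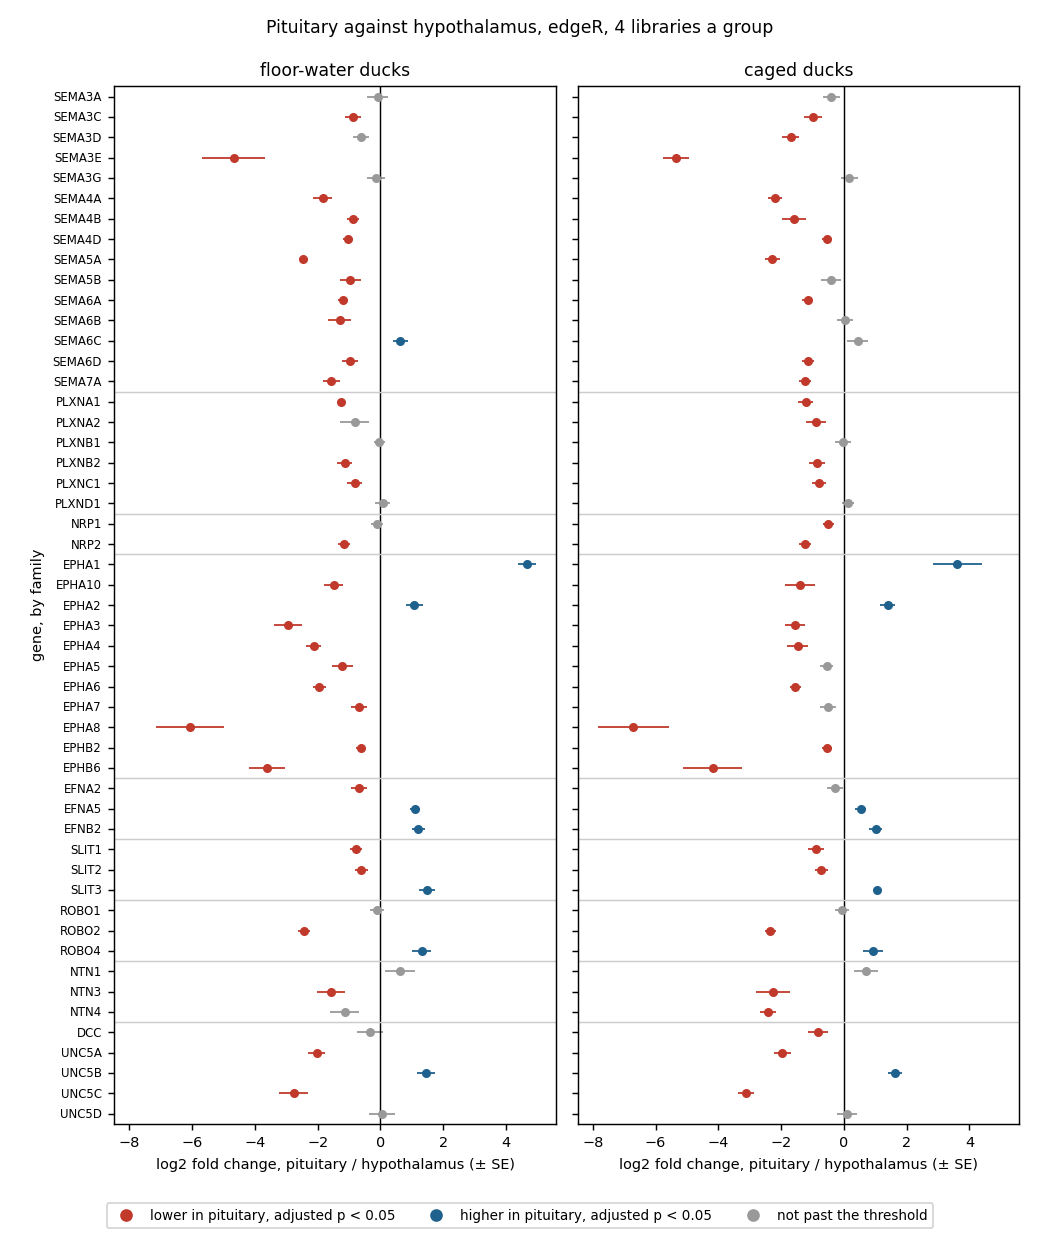
Log2 fold change of pituitary over hypothalamus (points, edgeR) with its standard error (bars) for the 51 members in floor-water and caged ducks, ordered by family; red and blue mark adjusted p under 0.05. Red points outnumber blue in each housing, 31 to 8 and 31 to 7, and the 7 members that are blue in both panels include EPHA1, SLIT3 and UNC5B.

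The counts by family that follow stand beside the same shares of all genes, 27.8% lower and 28.5% higher in floor-water and 26.8% and 27.3% in caged ducks, and no test compared the families. Among the semaphorins, the largest ligand family here, 11 of 15 were lower and 1 higher in pituitary in floor-water ducks, and 10 were lower and none higher in caged ducks. SEMA3E, a secreted ligand that binds plexin-D1 directly, is counted among the lower ones in each housing. It passed the filter on low counts through hypothalamus alone, so its values are given as a description. Its FPKM in hypothalamus was 2.36, 1.79, 1.68 and 2.16 in caged and 1.89, 1.204, 2.26 and 3.32 in floor-water libraries 1 to 4. In pituitary it was 0.0388, 0.0629, 0.0185 and 0.0256 in caged and 0.0001, 0.0736, 0.0184 and 0.197 in floor-water libraries. In each housing every pituitary library lay below every hypothalamus library. This held for 28 of the 51 members in floor-water and 32 in caged ducks, SEMA3E, EPHA8 and EPHB6 included. The same share over all genes is not given here, so these counts are not a result about the members. The fitted log2 fold changes of SEMA3E were -4.68 ± 1.0 in floor-water and -5.36 ± 0.41 in caged ducks (SE). The receptor PLXND1 did not pass in either housing and measured 16.4 ± 4.86 and 14.8 ± 2.59 FPKM in floor-water hypothalamus and pituitary (log2 fold change 0.07 ± 0.24, adjusted p = 0.827).

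SEMA5A, a transmembrane semaphorin with thrombospondin repeats, had the next largest fold change of the semaphorins in each housing. It measured 22.9, 16.6, 16.9 and 21.6 FPKM in floor-water hypothalamus and 2.85, 3.995, 2.57 and 2.93 FPKM in floor-water pituitary. The caged libraries gave 19.5, 18.2, 22.5 and 10.96 FPKM in hypothalamus and 2.58, 3.85, 2.42 and 2.66 FPKM in pituitary. The groups did not overlap in either housing, with log2 fold changes of -2.45 ± 0.16 (adjusted p = 6.52e-06) and -2.29 ± 0.23 (adjusted p = 9.68e-05). The transmembrane SEMA4A, SEMA4B, SEMA4D, SEMA6A and SEMA6D, the membrane-anchored SEMA7A and the secreted SEMA3C were also lower in pituitary in both housings. The 5 class 3 ligands with a symbol were dominated by SEMA3G, without the SEMA3A-like and SEMA3D-like loci listed by number. It held 74.5% ± 3.23 of their summed FPKM in caged and 79.1% ± 5.11 in floor-water hypothalamus. In caged and floor-water pituitary it held 89.0% ± 3.12 and 86.5% ± 4.05 (SD, n = 4). The level of SEMA3G itself did not pass the test between tissues in either housing.

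Of the plexins, the semaphorin receptors, 3 of 6 were lower in pituitary in floor-water and 4 in caged ducks, and none was higher. PLXNA1, the co-receptor of neuropilins for class 3 ligands, measured 23.9, 26.2, 20.8 and 20.7 FPKM in floor-water hypothalamus and 8.91, 9.45, 6.91 and 8.05 FPKM in floor-water pituitary. Its log2 fold changes were -1.25 ± 0.12 (adjusted p = 3.59e-05) and, in caged ducks, -1.22 ± 0.24 (adjusted p = 0.00275). PLXNB2, a receptor for class 4 semaphorins, followed with -1.14 ± 0.23 (adjusted p = 0.00252) and -0.86 ± 0.25 (adjusted p = 0.0191). The caged call for PLXNB2 was lost without caged hypothalamus library 1 (-0.74) or library 3 (-0.74). NRP2, a neuropilin that binds class 3 semaphorins and vascular endothelial growth factors, measured 17.2, 14.8, 15.9 and 8.99 FPKM in caged hypothalamus and 4.48, 4.57, 4.76 and 5.08 FPKM in caged pituitary. Its groups did not overlap in either housing (log2 fold changes -1.17 ± 0.19 in floor-water ducks, adjusted p = 0.000689, and -1.24 ± 0.19 in caged ducks, adjusted p = 0.000747). NRP1 passed in caged ducks only.

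The Eph receptors, tyrosine kinases that read ephrins on neighbouring cells, differed in both directions. In floor-water ducks 9 of 11 were lower and 2 higher in pituitary, and in caged ducks 7 were lower and the same 2 higher, with EPHA8 and EPHB6 among the lower ones. Their summed FPKM was 69.2 ± 14.4 in caged and 89.9 ± 15.8 in floor-water hypothalamus, and 33.9 ± 1.76 and 30.0 ± 2.09 in the pituitaries (SD, n = 4). EPHB1 and EPHB3, listed by a locus number, are not in that sum. In hypothalamus EPHA4 and EPHA5 together with EPHA3 made up most of that sum, with EPHA4 at 29.0% and 32.0%, EPHA5 at 36.2% and 31.5% and EPHA3 at 15.9% and 20.2% in caged and floor-water ducks. EPHA1, a receptor known in mammals mainly from epithelia, held 1.03% and 0.308% of the sum in hypothalamus but 17.7% and 19.3% in pituitary.

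EPHA1 measured 5.21, 6.32, 7.12 and 5.23 FPKM in caged pituitary and 6.16, 4.49, 7.25 and 5.37 FPKM in floor-water pituitary. In hypothalamus it measured 0.298, 0.274, 0.261 and 0.253 FPKM in floor-water libraries and 0.372, 0.0478, 0.585 and 1.45 FPKM in caged libraries 1 to 4. All pituitary libraries lay above all hypothalamus libraries, and the log2 fold changes were 4.67 ± 0.28 (adjusted p = 5.68e-06) in floor-water and 3.62 ± 0.77 (adjusted p = 0.00367) in caged ducks. The 4 caged hypothalamus libraries had EPHA1 in the same order as their hormone-cell markers, which summed to 3.6%, 0.264%, 4.44% and 19.0% of the pituitary mean in libraries 1 to 4. In floor-water hypothalamus library 1 was highest in both (1.43% of the pituitary mean), but libraries 2 to 4, at 0.305%, 0.414% and 0.496%, had EPHA1 in the opposite order. The part of these markers in the EPHA1 level was not tested. EPHA2, an epithelial and endothelial receptor in mammals, was the other one higher in pituitary. It measured 1.44, 1.79, 1.91 and 1.63 FPKM there against 0.804, 1.13, 0.791 and 1.05 FPKM in hypothalamus of floor-water ducks. Its groups did not overlap (log2 fold changes 1.07 ± 0.27, adjusted p = 0.00719, and in caged ducks 1.40 ± 0.24, adjusted p = 0.00131).

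EPHA8 and EPHB6 showed the reverse. EPHA8 measured 1.69, 1.85, 1.83 and 0.757 FPKM in floor-water and 1.19, 1.07, 0.498 and 0.701 FPKM in caged hypothalamus. In pituitary it had 0, 5, 0 and 19 counts in floor-water libraries and 0, 8, 0 and 0 counts in caged libraries 1 to 4. Its fitted log2 fold changes of -6.06 ± 1.1 and -6.71 ± 1.1 rest on these few counts and on the count added by the fit. Without caged pituitary library 2, no caged pituitary library held a count of it. EPHB6, an Eph receptor without kinase activity, measured 1.29, 1.52, 1.41 and 1.82 FPKM in floor-water hypothalamus and 0.0838, 0.197, 0.0148 and 0.152 FPKM in floor-water pituitary. Its groups were far apart in both housings (log2 fold changes -3.61 ± 0.57, adjusted p = 0.000538, and -4.18 ± 0.93 in caged ducks).

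The pituitary counts of SEMA3E, EPHA8 and EPHB6 were not spread evenly. EPHA8 had counts only in caged library 2 and floor-water libraries 2 and 4, the libraries with the most oligodendrocyte markers. SEMA3E was highest in the same libraries, with 25 counts in caged library 2 and 28 and 69 counts in floor-water libraries 2 and 4, against 0 to 15 counts in the other pituitary libraries. EPHB6 had 107, 144 and 103 counts in them and 0 to 53 in the others. Without these 3 libraries the floor-water log2 fold change of SEMA3E was -7.27, and EPHA8 had 0 counts in every pituitary library left. The part of brain transcripts in these pituitary counts was not tested.

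**Figure D3:**
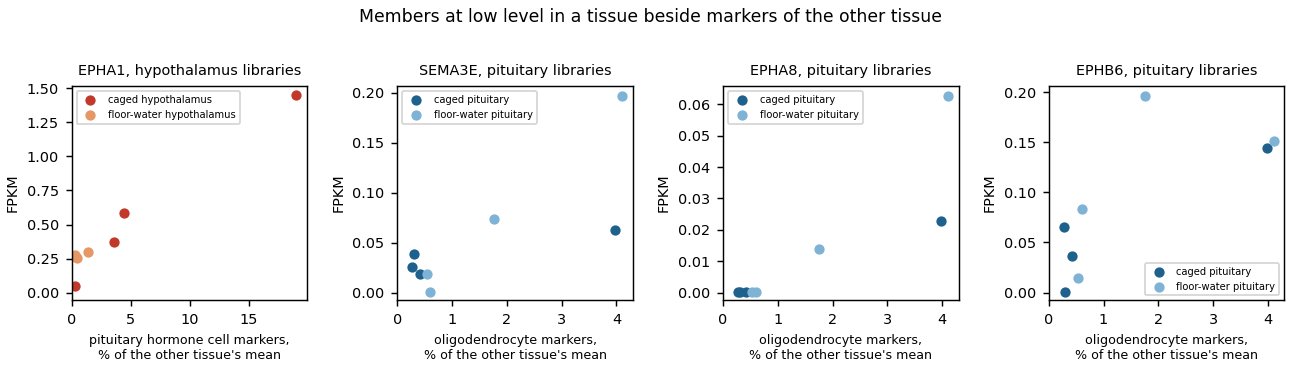
FPKM of EPHA1 in the 8 hypothalamus libraries against the summed hormone-cell markers, and of SEMA3E, EPHA8 and EPHB6 in the 8 pituitary libraries against the summed oligodendrocyte markers, each as a percentage of the other tissue's mean; 1 point is 1 library. The EPHA1 point at the far right is caged hypothalamus library 4 (1.45 FPKM at 19.0%), and the 3 pituitary points beyond 1% are caged library 2 and floor-water libraries 2 and 4.

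Of the 3 ephrins, EFNA5 and EFNB2 were higher in pituitary in both housings. EFNB2, a transmembrane ephrin that marks arterial endothelium in mammals, measured 5.95, 7.63, 3.41 and 5.28 FPKM in pituitary and 3.45, 2.37, 2.11 and 3.01 FPKM in hypothalamus of floor-water ducks. Pituitary library 3 lay just under the highest hypothalamus value (log2 fold change 1.21 ± 0.21, adjusted p = 0.00104). In caged ducks the groups of EFNB2 also overlapped, with 3.59 FPKM in pituitary library 4 and 3.97 FPKM in hypothalamus library 3. The caged log2 fold change was 1.01 ± 0.19 (adjusted p = 0.00222). It was 0.66 when scaled by library size alone, and 0.52 and 0.64 with limma on log2(FPKM + 1) and log2(FPKM + 0.1). The call was kept in each. EFNA5, a lipid-anchored ephrin, measured 4.299, 4.67, 2.32 and 3.505 FPKM in pituitary and 2.099, 1.89, 1.86 and 2.06 FPKM in hypothalamus of floor-water ducks (log2 fold change 1.09 ± 0.16, adjusted p = 0.000322). In caged ducks its log2 fold change was 0.53 ± 0.17 (adjusted p = 0.0278). That call was lost under 9 of the alternatives, among them leaving out caged hypothalamus library 1 (0.50), 2 (0.53) or 4 (0.52) or caged pituitary library 3 (0.52), and scaling by library size alone (0.18). EFNA2 measured 4.699 ± 1.29 FPKM in hypothalamus and 2.54 ± 0.646 FPKM in pituitary of floor-water ducks, where it was lower.

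The 3 Slits parted by tissue. SLIT1 measured 47.1, 41.5, 39.7 and 50.3 FPKM in floor-water hypothalamus and 20.98, 20.2, 25.3 and 21.2 FPKM in floor-water pituitary, without overlap. SLIT3 went the other way, with 6.09, 4.12, 5.43 and 2.69 FPKM in hypothalamus and 9.65, 13.8, 8.04 and 13.1 FPKM in pituitary of floor-water ducks. In caged ducks SLIT3 measured 5.94, 6.42, 6.59 and 4.49 FPKM in hypothalamus and 9.88, 9.93, 9.98 and 8.94 FPKM in pituitary. Pituitary lay above hypothalamus in every SLIT3 library, with log2 fold changes of 1.49 ± 0.25 (adjusted p = 0.000825) and 1.07 ± 0.14 (adjusted p = 0.000279). SLIT1 was lower in pituitary, with -0.78 ± 0.18 (adjusted p = 0.00539) and -0.89 ± 0.25 (adjusted p = 0.0158). SLIT3 thus made up 9.04% ± 0.786 and 8.29% ± 2.87 of the summed Slit FPKM in caged and floor-water hypothalamus and 28.4% ± 6.66 and 30.1% ± 6.64 in the pituitaries (SD, n = 4). SLIT2 was lower in pituitary by less, -0.60 ± 0.22 (adjusted p = 0.0369) and -0.72 ± 0.21 (adjusted p = 0.0166). The floor-water call of SLIT2 was lost without hypothalamus library 1 (-0.47) or 4 (-0.52) or pituitary library 1 (-0.58), 2 (-0.58) or 4 (-0.63), and without pituitary libraries 2 and 4 (-0.58) or 1 and 2 (-0.49) together. The caged calls of SLIT1 (-0.91) and SLIT2 (-0.53) were lost without hypothalamus libraries 2 and 4 together.

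The Robo receptors also parted. ROBO2, a neuronal receptor, measured 3.09, 2.86, 2.71 and 3.89 FPKM in hypothalamus and 0.669, 0.566, 0.3804 and 0.406 FPKM in pituitary of floor-water ducks. In caged ducks it measured 2.54, 2.204, 2.73 and 2.31 FPKM and 0.435, 0.406, 0.4000 and 0.281 FPKM. The tissues were far apart in both housings, with log2 fold changes of -2.44 ± 0.19 (adjusted p = 1.24e-05) and -2.34 ± 0.18 (adjusted p = 3.3e-05). ROBO4, in mammals a receptor of endothelial cells, was higher in pituitary, with 1.31 ± 0.30 in floor-water ducks (adjusted p = 0.00455) and 0.91 ± 0.32 in caged ducks (adjusted p = 0.0355). The caged ROBO4 call was lost under 11 alternatives, among them leaving out caged hypothalamus library 1 (0.94), 3 (0.79) or 4 (0.85) or caged pituitary library 1 (0.87), 3 (0.87) or 4 (0.64). ROBO1 was on average the most abundant of the 3 Robos with a symbol in each group, and passed in neither housing. Its mean shares were 59.5% to 61.2% of their summed FPKM, without ROBO3 and a second ROBO1 locus, both listed by number. Its share in single libraries was 41.5% to 70.4% in caged and 45.2% to 70.7% in floor-water pituitary. ROBO4 exceeded ROBO1 in caged pituitary library 4 (4.69 and 3.52 FPKM) and floor-water pituitary library 3 (4.155 and 3.74 FPKM). The share of ROBO2 was 21% and 25.9% in hypothalamus of caged and floor-water ducks against 4.16% and 5.02% in the pituitaries, and that of ROBO4 was 18.9% and 12.9% against 36.4% and 34.2%.

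The netrins with a symbol, secreted ligands of DCC and UNC5, were led by NTN1 in pituitary and by NTN1 and NTN4 in hypothalamus. NTN3 was lower in pituitary, with 1.64, 0.938, 1.01 and 1.96 FPKM in hypothalamus and 0.683, 0.583, 0.2002 and 0.206 FPKM in pituitary of floor-water ducks. Its log2 fold changes were -1.56 ± 0.45 (adjusted p = 0.0143) and, in caged ducks, -2.26 ± 0.53 (adjusted p = 0.00637). The floor-water call was lost without pituitary libraries 2 and 4 (-1.45), and the value was -2.39 without libraries 1 and 2. NTN1 varied widely within a group, with 4.96, 5.17, 4.31 and 17.05 FPKM in floor-water hypothalamus and 3.37, 6.16, 12.9 and 9.78 FPKM in caged pituitary, and passed in neither housing. NTN4, a laminin-related netrin, measured 9.26 ± 1.798 FPKM in caged hypothalamus and 1.36 ± 0.453 FPKM in caged pituitary, and passed in caged ducks.

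The netrin receptors differed in order between the tissues. UNC5B, a receptor of neurons and blood vessels, measured 8.26, 9.01, 8.78 and 10.3 FPKM in caged hypothalamus and 13.8, 18.8, 31.6 and 24.7 FPKM in caged pituitary. In floor-water ducks it measured 6.67, 8.22, 8.54 and 11.02 FPKM and 13.4, 17.96, 16.7 and 32.5 FPKM. All pituitary libraries lay above all hypothalamus libraries, with log2 fold changes of 1.46 ± 0.29 (adjusted p = 0.00231) in floor-water and 1.63 ± 0.24 (adjusted p = 0.000518) in caged ducks. UNC5A, a neuronal receptor, measured 16.96, 13.9, 13.3 and 14.5 FPKM in floor-water hypothalamus and 1.74, 4.33, 2.46 and 3.88 FPKM in floor-water pituitary. UNC5C measured 7.22, 8.07, 5.16 and 6.44 FPKM and 0.828, 1.58, 0.1898 and 0.988 FPKM in the same groups. Neither overlapped between the tissues, and the log2 fold changes were -2.03 ± 0.26 (adjusted p = 0.000176) for UNC5A and -2.77 ± 0.46 (adjusted p = 0.000718) for UNC5C, and in caged ducks -1.96 ± 0.28 (adjusted p = 0.000453) and -3.12 ± 0.27 (adjusted p = 5e-05).

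Within the 4 UNC5 receptors, UNC5B held 25.3% ± 5.53 and 25.8% ± 5.26 of the summed FPKM in caged and floor-water hypothalamus and 72.4% ± 12 and 72.9% ± 10.4 in the pituitaries (SD, n = 4). UNC5A held 42.0% and 43.9% in hypothalamus and 11% and 11.2% in pituitary, and UNC5C 19.7% and 20.1% against 2.29% and 3.26%. UNC5D passed in neither housing. DCC, the attractive receptor, ranged from 1.62 to 6.92 FPKM in floor-water pituitary and passed in caged ducks alone. In pituitary it was highest in floor-water libraries 2 and 4 (6.86 and 6.92 FPKM) and caged library 2 (4.54 FPKM), those richest in oligodendrocyte markers. UNC5A (4.33, 3.88 and 5.07 FPKM) and UNC5C (1.58, 0.988 and 0.981 FPKM) were highest in the same libraries. UNC5B reached 31.6 FPKM in caged library 3, and UNC5D was highest in caged library 1 (6.37 FPKM). The part of brain transcripts in these values was not tested. Beside ROBO4, UNC5B and EFNB2, the 7 endothelial markers summed to 45.7 to 58.5 FPKM in hypothalamus and 46.1 to 92 FPKM in pituitary. Of these markers 3 were higher and 1 lower in pituitary in floor-water ducks, and 3 higher and 2 lower in caged ducks. Fibroblast and meningeal markers were higher for 4 of 5 genes and lower for 1 in each housing, and summed to 22.5 to 55.5 FPKM in hypothalamus and 56.6 to 184 FPKM in pituitary. No endothelial or fibroblast marker was at 0 throughout a group, and the part of these cells in the members' values was not tested.

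**Figure D4:**
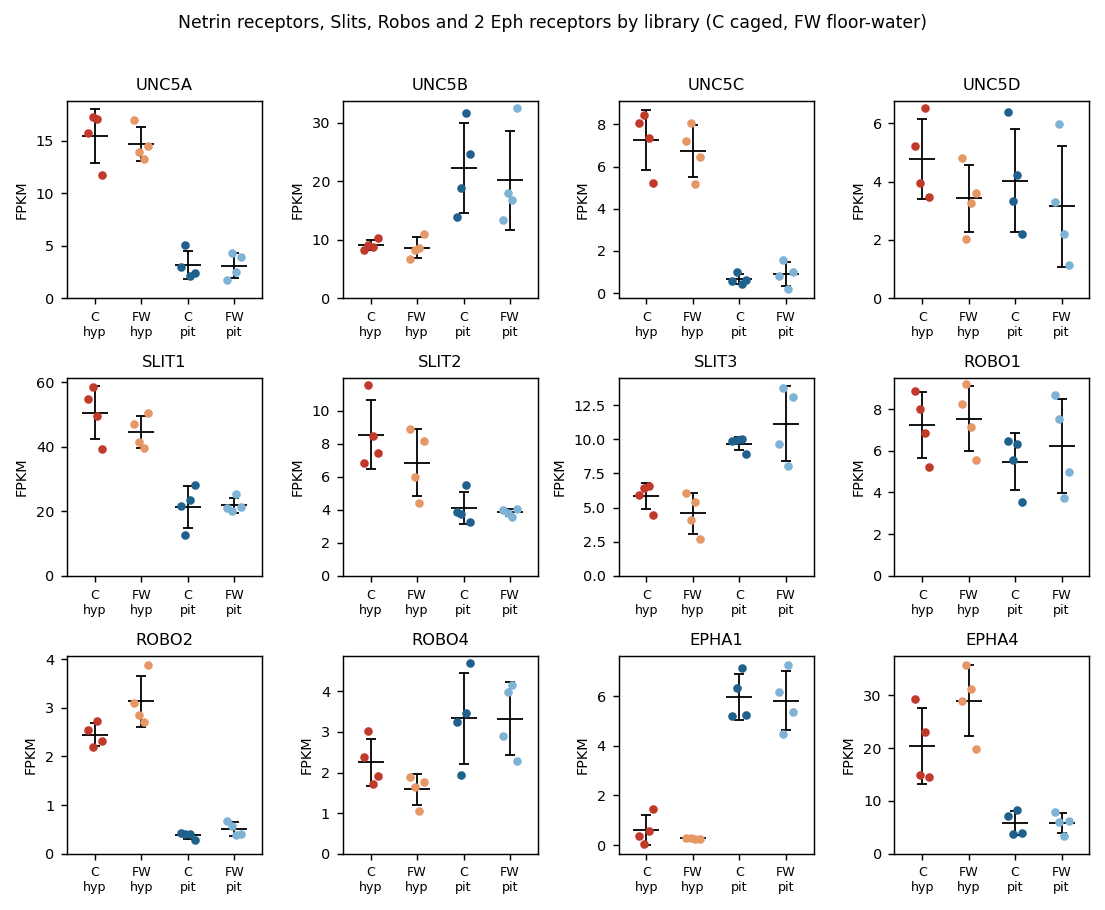
FPKM in each library (points) with the mean and SD of each group (black lines, n = 4) for UNC5A to UNC5D, SLIT1 to SLIT3, ROBO1, ROBO2, ROBO4, EPHA1 and EPHA4, in caged (C) and floor-water (FW) hypothalamus (hyp) and pituitary (pit). UNC5B, SLIT3 and EPHA1 are higher in pituitary, while UNC5A, UNC5C, SLIT1, ROBO2 and EPHA4 are lower there.

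Some members lie near each other in the deposited gene positions, whose genome build is not given in the sources used here. Whether other genes lie between them was not looked at. EPHA1 and EPHB6 lie 0.428 Mb apart and differed between the tissues in opposite directions. EPHA2, EPHB2 and EPHA8 lie within 1.04 Mb; EPHA2 was higher in pituitary and EPHB2 and EPHA8 were lower. SEMA3C, SEMA3E, SEMA3A and SEMA3D lie within 2.68 Mb, and their floor-water log2 fold changes were -0.88, -4.68, -0.09 and -0.61. ROBO2 and ROBO1 lie 0.292 Mb apart, with -2.44 and -0.10.

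Genes beside and inside these pathways were read from lists. Of 21 other guidance cues and receptors listed, 19 were tested, and 5 were higher and 10 lower in pituitary in floor-water ducks and 5 and 11 in caged ducks. The higher share, 26.3% in each housing, was near that of all genes (28.5% and 27.3%), and the lower share was 52.6% and 57.9% beside 27.8% and 26.8%. RGMA, a repulsive ligand of neogenin, stood at 37.4 FPKM in floor-water hypothalamus and 14.6 FPKM in floor-water pituitary, and the contactin CNTN1 at 72.8 and 3.58 FPKM. RYK, a receptor for Wnt proteins, stood at 5.90 and 22.5 FPKM. Of 53 genes of signalling inside the growth cone, 43 were tested, and 8 were higher and 23 lower in floor-water ducks and 7 and 21 in caged ducks. That is 18.6% higher and 53.5% lower in floor-water and 16.3% and 48.8% in caged ducks. DPYSL5, a collapsin response mediator, stood at 82.2 FPKM in floor-water hypothalamus and 11 FPKM in pituitary, and LIMK2, a kinase that acts on cofilin, at 9.64 and 23.9 FPKM. These 5 genes were chosen after their values were seen, and each passed in both housings.

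Caging was then compared with floor-water housing within each tissue, the question the series was designed for. No member passed in hypothalamus (of 51 tested), in pituitary (of 50; EPHA8 was too low there) or in the test of the difference between tissues (of 51). Over all genes edgeR called 0 of 15736, 0 of 15582 and 0 of 17010, a background of 0% in each. DESeq2 called 242, 38 and 131 genes in the 3 comparisons, and no member was among them. No member passed without caged hypothalamus libraries 2 and 4, or without the 3 pituitary libraries richest in oligodendrocyte markers. None passed without floor-water pituitary libraries 1 and 2 either. Each set was left out separately. At an unadjusted p under 0.05 there were 7 members in hypothalamus, 13.7% beside 9.3% of all genes, 2 members in pituitary, 4.0% beside 4.3%, and 6 in the difference, 11.8% beside 7.21%. In hypothalamus that count was 1 of 51 without caged libraries 2 and 4, beside 1230 of 16510 genes. Without any single library it was 2 to 9, beside 1015 to 1581 genes, against 1463 of 15736 with all libraries. The median standard error of a member's log2 fold change was 0.21 in hypothalamus and 0.29 in pituitary, with 4 libraries a group. Even fold changes near 1 on that scale did not pass, such as SEMA6B in pituitary (1.09 ± 0.39) and EPHA1 in hypothalamus (1.11 ± 0.74). The smallest detectable difference was not computed, so the lack of calls does not show that housing left the members unchanged.

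In hypothalamus, 10 of the 11 Eph receptors had a log2 fold change of caged over floor-water below 0, with a median of -0.28. Of all 51 members 26 were below 0, with a median of -0.00091, and the median over all genes was 0.00432. All 3 Slits, 5 netrin receptors and 2 neuropilins were above 0, and no test compared the families. The summed FPKM of the Eph receptors ranged from 51.9 to 87.0 in caged and 71.2 to 110 in floor-water libraries. No Eph receptor passed the threshold, and the libraries of the groups overlapped for each. EPHA1 was the 1 above 0, at 1.11 ± 0.74 (adjusted p = 0.694), beside the hormone-cell markers given above. EPHA8 measured 1.19, 1.07, 0.498 and 0.701 FPKM in the caged libraries and 1.69, 1.85, 1.83 and 0.757 FPKM in floor-water libraries (-0.86 ± 0.37, adjusted p = 0.525). EPHA6, a neuronal receptor, measured 2.56, 2.06, 2.12 and 1.86 FPKM and 3.17, 2.07, 2.56 and 2.89 FPKM (-0.36 ± 0.15, adjusted p = 0.513). For EPHA8 floor-water library 4 lay among the caged values, and for EPHA6 libraries 2 and 3 did. Without caged hypothalamus libraries 2 and 4, 9 of the 11 were below 0, with a median of -0.22, beside 24 of the 51 members. Library 4, with the most hormone-cell markers, was the lowest of the 4 caged libraries for 32 of the 51 members. The same share over all genes was not computed, so this count is not a result about the members. The part of library 4 in these values was not tested. In pituitary 4 of the 10 Eph receptors tested were below 0, beside 30 of the 50 members tested.

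Among the other members lower in caged hypothalamus, ROBO2 had the smallest p. It measured 2.54, 2.204, 2.73 and 2.31 FPKM in the caged libraries and 3.09, 2.86, 2.71 and 3.89 FPKM in floor-water libraries, with 1 caged library above the lowest floor-water value (-0.41 ± 0.13, adjusted p = 0.416). SEMA7A, a membrane-anchored ligand of plexin-C1 and integrins, measured 30.9, 22.6, 20.7 and 20.6 FPKM in the caged libraries and 23.5, 39.3, 30.3 and 46.5 FPKM in floor-water libraries (-0.61 ± 0.23, adjusted p = 0.476). SEMA5B, a transmembrane semaphorin, measured 4.03, 3.76, 4.13 and 2.42 FPKM and 5.22, 5.104, 4.605 and 3.89 FPKM (-0.44 ± 0.18, adjusted p = 0.505). The caged libraries were mostly the lower ones, but the groups overlapped for each of the 3. Without caged libraries 2 and 4 the value of SEMA5B was -0.27, and those of ROBO2, SEMA7A and EPHA6 were -0.32, -0.51 and -0.25.

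In the other direction, EFNA5 was the only member whose hypothalamus libraries did not overlap, 1.96% of the members beside 5.74% of all genes. It measured 2.33, 2.403, 2.82 and 2.34 FPKM in the caged libraries and 2.099, 1.89, 1.86 and 2.06 FPKM in floor-water libraries. The difference was small (0.27 ± 0.11, adjusted p = 0.509). NRP1 (0.22 ± 0.12), ROBO4 (0.47 ± 0.26), UNC5D (0.44 ± 0.26) and SEMA3D (0.33 ± 0.20) followed, with adjusted p-values of 0.614, 0.629, 0.657 and 0.668. The libraries of the groups overlapped for these 4. Without caged libraries 2 and 4 the values were 0.30 for ROBO4 and 0.71 for UNC5D, and on leaving out any 1 library they ranged from 0.29 to 0.59 and from 0.26 to 0.635, and NRP1 was 0.335 without floor-water library 1.

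In pituitary, SEMA6B, a transmembrane semaphorin that signals through A-type plexins, had the largest value in caged ducks relative to floor-water ducks. It measured 7.397, 5.196, 9.52 and 4.65 FPKM in the caged libraries and 2.25, 3.33, 5.15 and 1.89 FPKM in floor-water libraries. Floor-water library 3 lay among the caged values (1.09 ± 0.39, adjusted p = 1). SEMA3D, a secreted class 3 semaphorin, measured 0.789, 1.43, 0.937 and 0.863 FPKM in the caged libraries and 1.37, 2.93, 1.57 and 1.403 FPKM in floor-water libraries (-0.78 ± 0.31, adjusted p = 1). Caged library 2 reached into the floor-water values, and floor-water library 2 stood above the rest. SEMA4D (0.32 ± 0.19), EPHA3 (0.58 ± 0.38), EPHA5 (0.44 ± 0.34) and UNC5D (0.48 ± 0.44) came next upward, and NTN4 (-0.67 ± 0.36), EFNA5 (-0.30 ± 0.20), ROBO2 (-0.32 ± 0.25) and SEMA7A (-0.29 ± 0.23) downward, with unadjusted p-values from 0.0907 to 0.301. Each of these 8 moved by over 1.5 times when some libraries were left out. Over all such fits, single libraries and the 2 sets together, the upward ones ranged from 0.17 to 0.44 for SEMA4D, 0.36 to 0.92 for EPHA3, -0.02 to 0.88 for EPHA5 and 0.14 to 1.16 for UNC5D. The downward ones ranged from -1.26 to -0.32 for NTN4, -0.45 to -0.11 for EFNA5, -0.45 to -0.13 for ROBO2 and -0.53 to -0.02 for SEMA7A. Every pituitary member had overlapping groups, beside 2.34% of all genes without overlap.

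The difference in the cage effect between the tissues, pituitary minus hypothalamus, was largest for SEMA6B (1.32 ± 0.48, adjusted p = 0.5101) and EPHA3 (1.37 ± 0.56, adjusted p = 0.575). Fitted within a tissue, the log2 fold change of caged over floor-water was 1.09 in pituitary and -0.25 in hypothalamus for SEMA6B. For EPHA3 it was 0.58 and -0.80. In the other direction were SEMA3D (-1.11 ± 0.37, adjusted p = 0.463), EFNA5 (-0.58 ± 0.22, adjusted p = 0.551) and NTN4 (-1.29 ± 0.57, adjusted p = 0.6502). SEMA4D (0.48 ± 0.22), EPHA5 (0.64 ± 0.42) and EPHA4 (0.62 ± 0.42) were the next above 0, and SEMA4B (-0.73 ± 0.44) and SLIT3 (-0.44 ± 0.29) below. On leaving out libraries EPHA5 ranged from 0.19 to 1.08, EPHA4 from 0.28 to 0.85, SEMA4B from -1.16 to -0.55 and SLIT3 from -0.60 to -0.20. None passed, so no member was shown to respond to caging differently in the tissues. The authors' deposited table gives 6 members in hypothalamus and 1 in pituitary (SEMA6B) an unadjusted p under 0.05, and its smallest q-values for a member are 0.332 and 0.423. The share of all genes under that p in the authors' test is not given here, so these counts are not a result about the members.

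**Figure D5:**
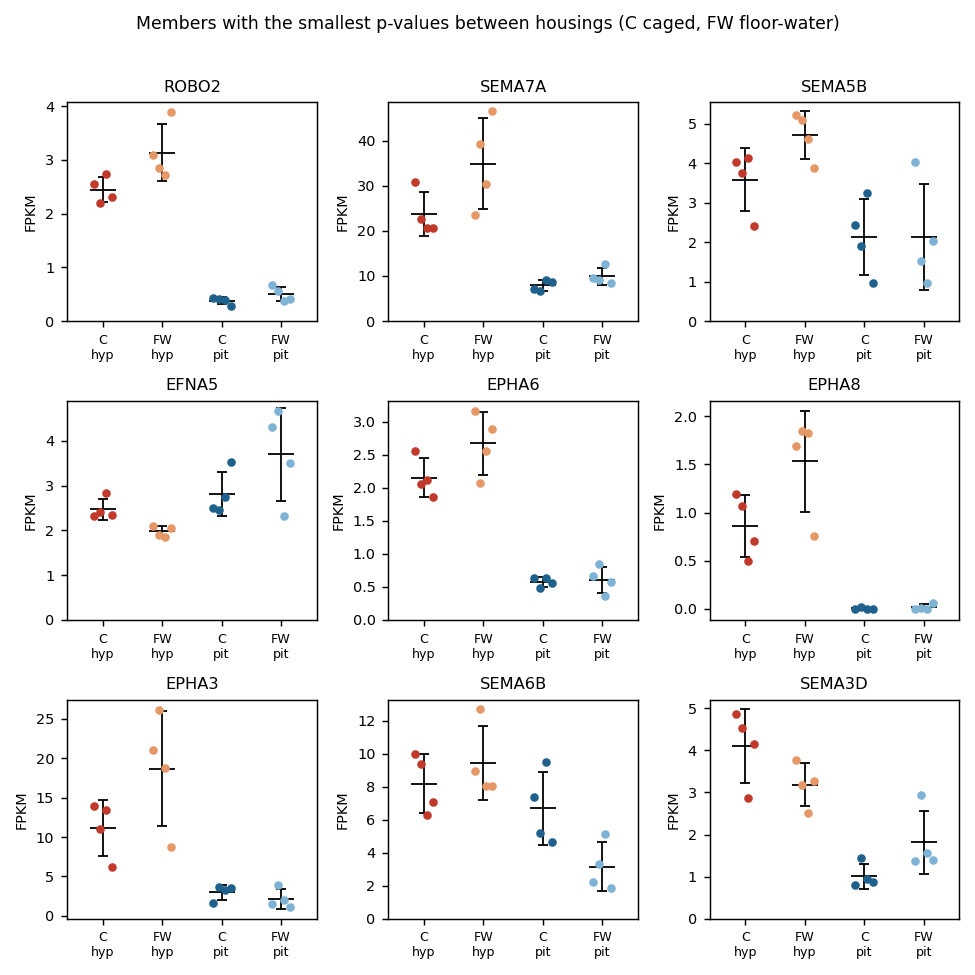
FPKM in each library (points) with the mean and SD of each group (black lines, n = 4) for the 9 members with an unadjusted p under 0.05 between housings, 7 in hypothalamus (ROBO2, SEMA7A, SEMA5B, EFNA5, EPHA6, EPHA8 and EPHA3) and 2 in pituitary (SEMA6B and SEMA3D). Only for EFNA5 in hypothalamus do the caged (C) and floor-water (FW) points not overlap, and none of the 9 passed after adjustment.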

How the data were processed

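Counts per gene and FPKM were deposited by the authors for 16 libraries, per the file headers; genes without signal are listed at 0.0001 FPKM. The authors also deposited tables of their own comparisons, giving per gene a log2 fold, p-value and q-value. Per the submitters' processing notes, cutadapt, HISAT2, StringTie 1.3.4d and DESeq2 were used; settings, strand use and genome build are not given in the sources used here. Overlapping and antisense genes and copies of a gene may therefore share reads.

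Members were taken by gene symbol, and members and lists were chosen with earlier results of these data known. Gene IDs were matched to a RefSeq gene table of a Pekin duck assembly, used for names only: 51 of 51 members were found, 50 with the same symbol. All per-sample columns belonged to labelled samples. Levels between genes are FPKM. Fold changes come from the deposited counts with edgeR 4.0.16 (quasi-likelihood test, TMM scaling, filterByExpr) in R 4.3.3, fitted over all genes in the libraries compared, with p-values adjusted by Benjamini-Hochberg and called under 0.05. A standard error is the fold change divided by the root of its F statistic. The difference in the cage effect between tissues was an interaction over 16 libraries. DESeq2 1.42.0 and limma 3.58.1 on log2(FPKM + 1) and log2(FPKM + 0.1) were alternatives, and DESeq2, limma and edgeR were tested on simulated data.

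Fold changes are named by a fixed rule: in each family up to 2 members each way past the threshold in both housings with the largest floor-water fold change, and for housing the 5 smallest p-values each way. Other alternatives were size factors, library size alone, no filter, a mean FPKM of at least 1, a log2 fold change of at least 1, a single fit of all libraries, a block on the number in the title, and leaving out libraries. Library totals of 38853215 to 67175356 counts make counting error small for all but the lowest genes. Within each group every pair of libraries differed by more than sampling noise (chi-square per degree of freedom 68.2 to 509).

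Marker lists not given in the report were those of mural cells (3 of 4 found; 10.5 to 159 FPKM summed in pituitary and 14.1 to 24.8 in hypothalamus), microglia (5 of 6; 22.9 to 60.9 and 43.4 to 64.1), folliculostellate and stem cells (4 of 5; 44.1 to 95.6 and 89.3 to 221) and skeletal muscle (2 of 4; 0.995 to 130 and 12.8 to 76.5). No erythrocyte marker of 4 was found by symbol.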

Additional observations from a re-analysis of the deposited data

Results flagged for a closer look

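In 13 of the 204 combinations of member and group, 1 library stood apart from the other 3 by a gap that took up most of the group's range (Dixon's test at 95%); chance gives about 1 in 20. Floor-water pituitary library 2 was high for SEMA3D (2.93 FPKM, the others 1.37 to 1.57) and NRP2 (7.02, the others 4.09 to 4.36), and floor-water pituitary library 3 was low for PLXNC1 (4.68, the others 10.7 to 10.96). Caged pituitary library 2 was high for SEMA5A (3.85, the others 2.42 to 2.66) and for EPHA8 (0.0228, the others listed at 0.0001), library 3 low for SEMA3C (1.36, the others 1.46 to 1.48) and library 4 low for SLIT3 (8.94, the others 9.88 to 9.98). In floor-water hypothalamus, library 2 was low for PLXNA2 (1.86, the others 5.34 to 5.90) and high for NRP2 (16.3, the others 11.1 to 11.96), and library 4 was low for EPHA8 (0.757, the others 1.69 to 1.85) and high for NTN1 (17.0, the others 4.31 to 5.17). In caged hypothalamus, library 4 was low for PLXNB1 (10, the others 10.8 to 10.9) and library 3 high for EFNA5 (2.82, the others 2.33 to 2.40).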

How the results depend on the processing

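Every count of members past the threshold stayed within 1.5 times its value under the alternatives, and no call that was kept changed sign. Between tissues it ranged from 28 (log2 fold change of at least 1) to 41 (DESeq2) in floor-water ducks, with 34 to 38 on leaving out 1 library, and from 26 to 40 in caged ducks, with 31 to 37. Over all genes DESeq2 called 9336 of 15798 in floor-water ducks. Leaving out 1 library gave 8139 to 8820 genes there and 7329 to 8401 in caged ducks. The 40 came from limma on log2(FPKM + 1), which called 8751 of 15854 genes. No count over all genes is given here for a log2 fold change of at least 1. For housing and for the difference in the cage effect it was 0 under each. Whether libraries of the same title number share a bird is not given in the sources used here, and the main tissue tests took them as unpaired. Deviations of same-numbered hypothalamus and pituitary libraries correlated at 0.0913 to 0.191 in caged and 0.0231 to 0.202 in floor-water ducks. Of these, 4 of 4 and 3 of 4 correlated best with their own number. Between housings, 2 of 4 did so in hypothalamus and 1 of 4 in pituitary. With the replicate number as a block, 38 members passed between tissues in each housing (37 and 36 of them shared) and 0 in the other comparisons. Those tissue fits called 8429 of 15878 genes in floor-water and 8200 of 15854 in caged ducks. The block ended the calls of SLIT2 in floor-water (-0.57) and of ROBO4 (0.89) and EFNA5 (0.51) in caged ducks. Of the named fold changes, EPHA5 between housings in pituitary, never called, reversed (-0.0196) without floor-water pituitary libraries 1 and 2, chosen after seeing the data; calls were lost in caged ducks for ROBO4 (11 settings, 0.39 to 1.08), EFNA5 (9 settings, 0.13 to 0.53), PLXNB2 (2), SLIT1 (1) and SLIT2 (1), and in floor-water ducks for SLIT2 (8, -0.47 to -0.63) and NTN3 (1); the cause was not tested. Limma on log2(FPKM + 1), which understates low genes, gave 2.41 for EPHA1, -1.29 for EPHA8, -1.18 for EPHB6 and -1.52 for SEMA3E in floor-water ducks. Depth limits EPHA8, SEMA3E and EPHB6 in pituitary.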

Other observations

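Further genes from the list of other guidance cues are named here after their values were seen, and they stand for no theme. Not all of the list differed: DSCAM, an adhesion molecule of neurons, stood at 20.1 FPKM in floor-water hypothalamus and 16.2 FPKM in floor-water pituitary and passed in neither housing. CHL1, a neural member of the L1 family, stood at 27.5 ± 4.16 FPKM in floor-water hypothalamus and 0.979 ± 1.0 FPKM in floor-water pituitary (SD, n = 4). In caged ducks it stood at 28.6 ± 6.30 and 0.487 ± 0.830 FPKM, so the SD in pituitary exceeded the mean in each housing. Its fitted log2 fold changes were -4.69 in floor-water and -5.57 in caged ducks. They are given without p-values, since whether CHL1 passed the filter on low counts in pituitary is not given here. NRCAM, of the same family, stood at 9.61 ± 2.56 and 2.14 ± 0.730 FPKM in floor-water hypothalamus and pituitary. NTNG1, a netrin-G, a membrane-anchored synaptic protein, stood at 82.9 ± 29.1 and 6.60 ± 1.75 FPKM, with log2 fold changes of -3.46 (adjusted p = 1.87e-05) and -2.72 (adjusted p = 9.51e-05). Its relative NTNG2 was higher in pituitary, with 3.67 ± 0.218 FPKM in floor-water hypothalamus and 11.7 ± 7.52 FPKM in pituitary (1.91, adjusted p = 0.00279). The growth factor GDNF (2.13, adjusted p = 0.00129) and its receptor GFRA1 (1.23, adjusted p = 0.0207) were both higher in floor-water pituitary. Between housings none of the 19 tested cues passed in either tissue, nor did any of the growth-cone signalling genes tested.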
